A study of Arabidopsis thaliana with 9 samples.

Results

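The starch genes described here are 40 nuclear genes of Arabidopsis thaliana, taken from the deposited expression table by their locus identifiers. They comprise 17 genes of starch synthesis, 21 of starch breakdown and 2 of granule organisation. All 40 were found among the 33602 loci of the table, and all 40 were among the 16384 genes abundant enough to be tested. Poly(A) RNA had been sequenced from young rosette leaves of plants of the Col-0 accession, 8 weeks old, kept in short days and harvested 2 h after lights-on at 125 µE m-2 s-1. Each of the 9 samples was a pool of leaves from 3 plants, and each of 3 genotypes had 3 samples. The unmutated wild type was set beside 2 mutants. The double mutant 2cpab is without both 2-Cys peroxiredoxins of the chloroplast, A and B. The triple mutant ntrc-2cpab is additionally without NTRC, the NADPH-dependent thioredoxin reductase of this organelle. Both mutants thus carried the loss of the peroxiredoxins, and the difference between them was the loss of NTRC. The sources used here give neither the mutant alleles nor the number of lines.

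In the light, leaves store part of the fixed carbon in the chloroplast as starch. ADP-glucose pyrophosphorylase makes ADP-glucose, starch synthases extend the glucan chains, branching enzymes add branches, and isoamylase trims misplaced ones so that the glucan can crystallise. At night, dikinases phosphorylate the granule surface, glucan phosphatases remove the phosphate again, and beta-amylases release maltose, which leaves the chloroplast and is processed in the cytosol. Transcripts of many breakdown genes cycle over the day in Arabidopsis, and several starch enzymes, among them ADP-glucose pyrophosphorylase and the beta-amylase BAM1, are activated by reduction of disulfides through thioredoxins or NTRC. RNA levels do not report that activation.

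Levels are scaled abundances, calculated back from the deposited log2 values; they are relative to the other genes of the same sample. The mutations were visible in the RNA: the peroxiredoxin gene 2CPA stood at 258.8 to 325.2 in the wild type and at 3.43 to 4.85 in both mutants, 2CPB at 52.96 to 63.4 against 8.88 to 10.8, and NTRC at 14.7 to 18.3 in ntrc-2cpab against 60.9 to 80.2 in the other samples. Wild type replicate 1 stood apart on the first principal component of all tested genes, which held 37% of the variance. Its coordinate was -36.2, against -18.3 and -4.42 for the other wild type samples and 1.28 to 20.8 for the mutants. The leaf markers LHCB1.1, PSBO1 and RBCS1A were abundant in every sample and summed to 14360 to 21470, and 6 markers of flowers, roots and senescing leaves reached at most 0.086, with AP1, EXPA7 and SAG12 at 0 throughout. In bulk tissue, fewer cells of a type and less RNA per cell cannot be told apart.

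In the mean of both mutants against the wild type, 3 starch genes were called lower, and all of them act in breakdown. They were BAM1, a chloroplast beta-amylase, LSF2, a glucan phosphatase, and MEX1, the maltose exporter of the chloroplast envelope. None of them was called in 2cpab alone, and none was called when wild type replicate 1 was left out. The same held when 2cpab replicate 2 or 2cpab replicate 3 was left out instead. Averaged over both mutants, BAM1 stood at 76.4% of the wild type level, LSF2 at 69.3% and MEX1 at 78.3%. No starch gene rose in any comparison. Under quantile normalization the synthesis gene PGI1 was called lower as well (-0.27, limma adjusted p = 0.0439). The genes of synthesis lay slightly below the wild type as a group without any 1 of them passing the test as fitted. The remaining breakdown genes were spread to both sides of 0, with 10 of 18 below. Without wild type replicate 1, however, 17 of the 21 breakdown genes and 16 of the 17 synthesis genes lay below 0 in the mean of both mutants.

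The calls came from limma fitted to all tested genes, with Benjamini-Hochberg adjustment and a threshold of 0.05 on the adjusted p. In the mean of both mutants against the wild type, 3 of the 40 starch genes were called lower, where 1.98% of all tested genes were, and 0 were called higher, where 3.12% of all tested genes were. In ntrc-2cpab against the wild type, 1 gene, MEX1, was called lower (all tested genes 1.33%) and 0 higher (2.61%). In 2cpab against the wild type, limma called 0 starch genes, beside 0.0671% of all tested genes in each direction. At an unadjusted p under 0.05, 2cpab had 13 of the 40 lower and 0 higher, ntrc-2cpab 14 and 0, and the mean of both mutants 14 and 0. Over all 16384 tested genes, the corresponding counts were 1360 lower and 1478 higher, 1852 and 2141, and 1924 and 2165. These comparisons share the wild type samples, so their counts are not independent of each other. Wild type replicate 1 weighed on them: without it limma called 0 starch genes in any comparison. The calls over all tested genes in the mean of both mutants then went from 512 higher and 325 lower to 8 and 9. The loss of the starch calls was not particular to that sample: BAM1, LSF2 and MEX1 also lost theirs without 2cpab replicate 2 and without 2cpab replicate 3.

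**Figure D1:**
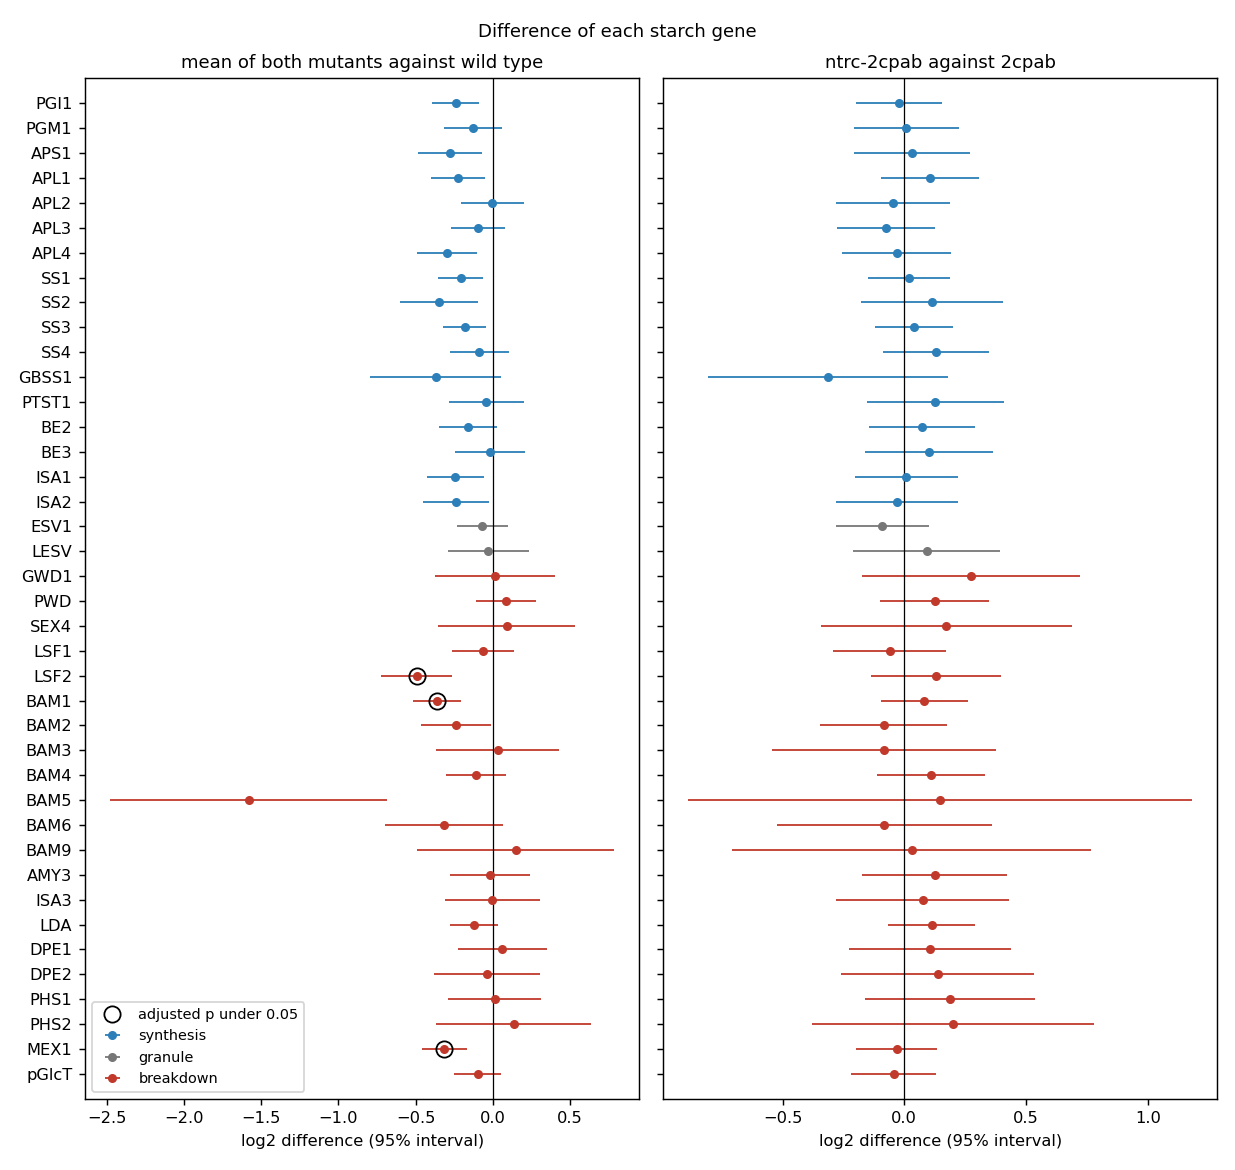
log2 difference of each of the 40 starch genes (rows), on the left for the mean of both mutants against the wild type and on the right for ntrc-2cpab against 2cpab, with bars for the 95% confidence interval of the limma fit and rings for an adjusted p under 0.05. On the left the 17 synthesis genes lie below 0 (13 of them with the authors' scaling undone), BAM5 lies farthest below with the widest interval, and BAM1, LSF2 and MEX1 carry rings; on the right no gene does.

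BAM1 (AT3G23920) is known from guard cells, where it acts in starch breakdown in the light, and from leaf mesophyll under stress. Its abundance was 20.98, 19.3 and 17.5 in wild type samples, 14.0, 14.8 and 13.9 in those of 2cpab and 14.6, 15.6 and 15.3 in those of ntrc-2cpab. All 6 mutant samples lay below all 3 wild type samples, and the mutants varied less among themselves than the wild type did. The difference between the mean of both mutants and the wild type was -0.36 ± 0.07 (log2, SE; limma adjusted p = 0.0244), that of 2cpab alone -0.41 (adjusted p = 0.0681) and that of ntrc-2cpab alone -0.32 (adjusted p = 0.0562). Without wild type replicate 1 the difference in the mean of both mutants was -0.30 with a limma adjusted p of 0.0831, and the adjusted p was 0.0569 without 2cpab replicate 2 and 0.0526 without 2cpab replicate 3. The guard cell markers FAMA, HT1, KAT1, KAT2, MYB60 and SLAC1 were below 0 in this comparison in 6 of 6 cases, and KAT1, a potassium channel, fell by 0.46 (log2; limma adjusted p = 0.0272). The summed level of these markers was 27.9 to 32.7 (wild type), 20.2 to 25.2 (2cpab) and 24.1 to 27.1 (ntrc-2cpab), and their part in the BAM1 result was not tested.

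LSF2 (AT3G10940) removes phosphate from starch glucans. The wild type samples were almost identical, at 12.6, 12.7 and 12.7, while the double mutant had 7.35, 9.01 and 8.64 and the triple mutant 7.47, 9.65 and 10.7. The highest mutant sample lay below the lowest wild type sample, and the 3 ntrc-2cpab samples were spread more widely than those of either other genotype. LSF2 differed by -0.49 ± 0.10 (log2, SE) in the mean of both mutants, with a limma adjusted p of 0.0321; for 2cpab alone the value was -0.56 (adjusted p = 0.0814) and for ntrc-2cpab alone -0.43 (adjusted p = 0.0747). Leaving out any single wild type or 2cpab sample, or ntrc-2cpab replicate 2, ended the call, at limma adjusted p of 0.051 to 0.106, with the difference at -0.52 to -0.46.

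MEX1 (AT5G17520) carries maltose out of the chloroplast. Its levels were 8.47, 8.74 and 8.65 in wild type leaves, 7.55, 6.32 and 6.65 in 2cpab leaves and 6.79, 6.45 and 6.73 in ntrc-2cpab leaves. Every mutant sample was below every wild type sample, and 2cpab replicate 1 came nearest. MEX1 was the only starch gene called in a single mutant: it differed by -0.33 ± 0.07 in ntrc-2cpab (log2, SE; limma adjusted p = 0.0448), by -0.30 in 2cpab (adjusted p = 0.104) and by -0.31 ± 0.06 in the mean of both (adjusted p = 0.0306). In ntrc-2cpab alone the call remained without 2cpab replicate 1 and was lost without each of the other 8 samples (limma adjusted p = 0.0594 to 0.111). The call in the mean of both mutants remained without 2cpab replicate 1 and without ntrc-2cpab replicate 3 and was lost without each of the other 7 samples, where the limma adjusted p was 0.0536 to 0.0913. pGlcT, the glucose transporter of the same membrane, stood at 28.6, 30.2 and 32.6 in wild type samples, 29.5, 28.9 and 28.1 in those of 2cpab and 25.9, 29.3 and 28.7 in those of ntrc-2cpab, with overlapping groups, and was not called (-0.10, limma adjusted p = 0.401 in the mean of both mutants).

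**Figure D2:**
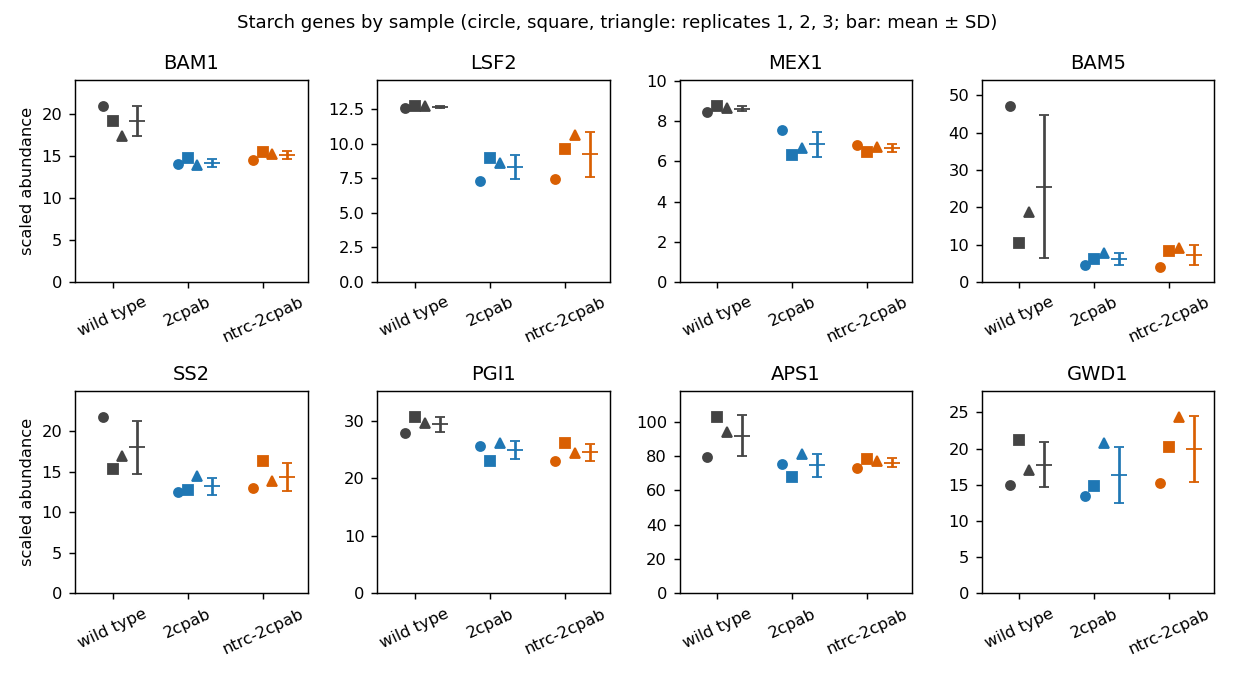
Scaled abundance of selected starch genes in each sample, by genotype, for BAM1, LSF2, MEX1, BAM5, SS2, PGI1, APS1 and GWD1; symbols are replicates 1 (circle), 2 (square) and 3 (triangle), and bars are the mean ± SD (n = 3). For BAM1, LSF2, MEX1, BAM5 and PGI1 the 6 mutant samples lie below the 3 wild type samples, and for SS2, APS1 and GWD1 at least 1 mutant sample reaches the wild type range.

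The stretches before the start of BAM1 and MEX1 are shown because these genes passed the test. Sequences are the 250 bases before the annotated gene start, 5′ to 3′ on the gene's strand, read from the RefSeq genome TAIR10.1 (the submitters' processing notes name TAIR10). They lie at chr3:8640931-8641180 on the plus strand for BAM1 and chr5:5775418-5775667 on the minus strand for MEX1. Capitals would mark the motifs searched for, and neither stretch has any.
BAM1: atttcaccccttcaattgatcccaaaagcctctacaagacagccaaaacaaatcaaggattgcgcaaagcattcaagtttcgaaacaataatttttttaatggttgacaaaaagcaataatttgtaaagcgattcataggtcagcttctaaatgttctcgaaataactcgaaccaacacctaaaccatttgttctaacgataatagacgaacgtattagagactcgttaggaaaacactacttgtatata
MEX1: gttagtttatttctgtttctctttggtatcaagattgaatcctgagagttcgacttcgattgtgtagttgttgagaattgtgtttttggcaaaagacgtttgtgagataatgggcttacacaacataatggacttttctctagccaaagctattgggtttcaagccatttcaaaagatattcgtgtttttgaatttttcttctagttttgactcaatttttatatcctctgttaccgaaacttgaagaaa
The motifs were the evening element AAATATCT, the G-box CACGTG and the I-box GATAAG of light-regulated genes, each on either strand. The evening element is bound by clock proteins and the G-box by light- and clock-related factors. Among the 40 starch genes, 7 held an evening element (17.5%, against 4.79% of 27443 stretches of the same length), 12 a G-box (30%, against 6.49%) and 6 an I-box (15%, against 12.3%). The 20 starch genes with no motif had a median difference of -0.10 (log2) in the mean of both mutants, the 12 with a G-box a median of -0.05, the 7 with an evening element -0.02 and the 6 with an I-box -0.18; some genes hold more than 1 motif. BE3, a branching enzyme, and PHS1, the chloroplast glucan phosphorylase, are shown as starch genes that hold both an evening element and a G-box, and neither differed in level between the genotypes beyond its spread. They lie at chr2:15263961-15264210 and chr3:11252557-11252806, both on the plus strand.
BE3: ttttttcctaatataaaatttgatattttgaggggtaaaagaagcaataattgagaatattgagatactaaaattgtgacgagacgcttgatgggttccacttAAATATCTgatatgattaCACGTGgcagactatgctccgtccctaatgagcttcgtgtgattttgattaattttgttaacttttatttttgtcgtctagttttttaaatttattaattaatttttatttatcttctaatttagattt
PHS1: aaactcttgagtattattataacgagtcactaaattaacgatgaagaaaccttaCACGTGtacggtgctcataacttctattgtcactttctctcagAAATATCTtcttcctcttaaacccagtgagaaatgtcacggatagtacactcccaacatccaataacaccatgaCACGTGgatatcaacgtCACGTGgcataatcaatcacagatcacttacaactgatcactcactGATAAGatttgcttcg
In PHS1 the evening element began 153 bases before the gene start the G-boxes at 196, 79 and 62 bases before it and an I-box at 16 bases; in BE3 the corresponding distances were 147 and 129 bases. A match is a match of letters only.

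The beta-amylases, 7 of the breakdown genes, differed widely among themselves. BAM3 (AT4G17090), the main beta-amylase of night-time starch breakdown in leaves, was the most abundant and stood at 90.7, 79.4 and 75.1 (wild type), 72.4, 76.3 and 113.7 (2cpab) and 74.2, 107.0 and 66.4 (ntrc-2cpab). A single sample of each mutant was high, and the wild type samples lay within the mutant range. Its difference was 0.03 in the mean of both mutants (95% confidence interval -0.37 to 0.43, limma adjusted p = 0.936). BAM3 took 49.2 to 56.3% of the summed beta-amylase abundance in the wild type and 59 to 70.5% in the mutants, so that the wild type and mutant ranges of this share did not overlap. BAM5 took 7.5 to 25.5% of the sum in the wild type and 3.37 to 8.18% in the mutants. Because the sum includes BAM5, the BAM3 share is no measure of BAM3 alone, whose own level overlapped between the genotypes.

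BAM5 (AT4G15210), a cytosolic beta-amylase of the vascular tissue that is not thought to act on chloroplast starch, had the lowest level relative to the wild type of all starch genes, at 26.2% in the mean of both mutants. It stood at 47.1, 10.6 and 18.8 in wild type leaves, 4.63, 6.21 and 7.65 in 2cpab leaves and 4.06, 8.25 and 9.21 in ntrc-2cpab leaves. The wild type samples differed widely among themselves, with replicate 1 far above the others, and the lowest wild type sample was close to the highest mutant sample without overlapping it. The difference was -1.58 ± 0.40 (log2, SE) and missed the threshold with a limma adjusted p of 0.054. Without wild type replicate 1 it was -1.03 (adjusted p = 0.142) and without wild type replicate 2 it was -2.05 (adjusted p = 0.0216). The phloem markers summed to 70.8 to 74.7 in wild type samples, 60.6 to 73.6 in those of 2cpab and 66.3 to 77.4 in those of ntrc-2cpab, and among these 4 markers 3 were below 0 while SWEET11, a sucrose exporter of the phloem, rose by 0.68 (log2; limma adjusted p = 0.0437); their part in the BAM5 result was not tested.

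The other beta-amylases were not called in any comparison. BAM2 stood at 14.8 ± 2.4 (wild type), 12.7 ± 0.5 (2cpab) and 12.0 ± 1.3 (ntrc-2cpab) (SD, n = 3). BAM9, a catalytically inactive member, stood at 8.20 ± 2.85, 8.91 ± 2.53 and 9.49 ± 4.04 in the order wild type, 2cpab, ntrc-2cpab (SD, n = 3). BAM4, also without activity of its own, and BAM6 were low, with means of 2.84 and 1.66 over the 9 samples.

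LSF2, BAM1 and MEX1 apart, the genes that act at the granule surface and those that handle its products showed no called difference. GWD1 (AT1G10760), the glucan water dikinase, stood at 15.0, 21.1 and 17.1 in wild type leaves, 13.4, 14.8 and 20.7 in 2cpab leaves and 15.3, 20.2 and 24.3 in ntrc-2cpab leaves, a range within each genotype that was wider than the difference between any of the genotype means. PWD, which acts after GWD1, stood at 8.07, 8.20 and 8.52 in wild type samples, 7.83, 8.00 and 9.41 in those of 2cpab and 7.95, 10.02 and 9.89 in those of ntrc-2cpab. The mutant samples extended beyond the wild type range on both sides. The phosphatase SEX4 stood at 8.78, 17.2 and 11.2 (wild type), 10.8, 10.2 and 15.5 (2cpab) and 11.2, 15.2 and 14.8 (ntrc-2cpab), so that the wild type samples spanned the mutant ones. LSF1, a relative that is not thought to act as a phosphatase, had means of 8.98, 8.78 and 8.38, and it overlaps a neighbouring gene on the same strand over 343 bases. LSF2 was the only 1 of the 3 glucan phosphatase genes that was called, although the difference between these genes was not tested.

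Downstream, PHS1 stood at 33.8, 46.9 and 43.7 in wild type leaves, 33.6, 38.8 and 44.4 in 2cpab leaves and 37.0, 47.0 and 49.6 in ntrc-2cpab leaves. The cytosolic phosphorylase PHS2 stood at 30.4 ± 4.0, 32.3 ± 12.3 and 36.6 ± 9.5 in the same order (SD, n = 3), and for both genes the genotypes overlapped. The disproportionating enzymes DPE1 of the chloroplast and DPE2 of the cytosol had fitted differences of 0.06 and -0.04 (log2) in the mean of both mutants. The chloroplast alpha-amylase AMY3 (AT1G69830) stood at 19.7, 24.2 and 22.6 in wild type samples, 18.47, 20.8 and 23.5 in those of 2cpab and 18.8, 24.8 and 25.3 in those of ntrc-2cpab, with overlapping groups. The debranching enzymes ISA3 and LDA had limma adjusted p of 0.987 and 0.298 in the mean of both mutants. All 4 genes of glucanotransferases and phosphorylases and both dikinases were above 0 in ntrc-2cpab, where 8256 of all 16384 tested genes were, and 0 of these 6 lay wholly above the wild type (all tested genes 14.3%). In 2cpab, 2 of the 4 and 1 of the 2 were above 0.

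The synthesis genes differed from the wild type by -0.37 (GBSS1) to -0.005 (APL2) on the log2 scale in the mean of both mutants, and none passed the test (PGI1 alone did under quantile normalization). All 17 lay below 0 in the mean of both mutants (13 with the authors' scaling undone), with a median of -0.21 (log2) beside -0.001 for all tested genes, of which 50.1% lay below 0. In 2cpab 16 of 17 were below 0 (median -0.21; all genes 50%) and in ntrc-2cpab 15 of 17 (median -0.17; all genes 49.6%). Of the 17, 0 were called by limma in any of the 4 comparisons, and 9 had an unadjusted p under 0.05 in the mean of both mutants. The size depended on the scaling of the samples: with the authors' scaling undone the median was -0.11, while that of all tested genes moved to 0.08. Relative to that shifted median of all genes, 17 of 17 lay below. Without wild type replicate 1, 16 of 17 were below 0, with a median of -0.19.

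The first steps of synthesis lead from the Calvin-Benson cycle to ADP-glucose. PGI1 (AT4G24620), the plastid phosphoglucose isomerase, had 28.0, 30.6 and 29.7 (wild type), 25.6, 23.1 and 26.2 (2cpab) and 23.1, 26.1 and 24.5 (ntrc-2cpab). The wild type and mutant samples did not overlap, and the difference of -0.24 missed the threshold (limma adjusted p = 0.0702). PGM1, the plastid phosphoglucomutase, stood at 28.3, 34.0 and 31.2 in wild type leaves, 27.7, 26.1 and 31.2 in 2cpab leaves and 27.0, 30.4 and 28.0 in ntrc-2cpab leaves, with overlapping groups (-0.13, limma adjusted p = 0.371).

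ADP-glucose pyrophosphorylase consists of the catalytic small subunit APS1 (AT5G48300) and large subunits, of which APL1 (AT5G19220) is the main one in leaves. APS1 stood at 79.3, 102.6 and 94.4 in wild type samples, 75.2, 67.9 and 81.0 in those of 2cpab and 73.3, 78.3 and 77.2 in those of ntrc-2cpab, so that wild type replicate 1 fell within the mutant range. APL1 stood at 105.5, 120.1 and 109.9 (wild type), 91.5, 83.6 and 101.3 (2cpab) and 95.2, 98.4 and 103.5 (ntrc-2cpab), with no overlap between wild type and mutants. Neither passed the test (APS1 -0.28, limma adjusted p = 0.103; APL1 -0.23, adjusted p = 0.113). APL1 made up 50.3 to 53.6% of the summed abundance of the 5 subunit genes and APS1 40 to 43.4%, with nearly the same shares in every genotype. Of the minor large subunits, APL3 had a mean of 7.06 over all samples, and APL2 of 3.70. APL4, at 2.73, 2.05 and 2.41 (wild type), 2.05, 1.65 and 1.68 (2cpab) and 1.79, 1.77 and 1.63 (ntrc-2cpab), differed by -0.30 (limma adjusted p = 0.0756); its lowest wild type sample, 2.048, was all but equal to its highest mutant sample, 2.046. An annotated lncRNA overlaps APL1 on the opposite strand over 2386 bases, and the sources used here do not say whether the counting used strand.

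Among the starch synthases, GBSS1 (AT1G32900), which makes amylose, was the most abundant and had the widest range. It stood at 107.5, 67.3 and 72.9 in wild type leaves, 73.0, 57.0 and 80.7 in 2cpab leaves and 48.1, 74.0 and 48.6 in ntrc-2cpab leaves. The 3 genotypes overlapped, and the difference in ntrc-2cpab was -0.53 (95% confidence interval -1.02 to -0.04, limma adjusted p = 0.18). SS1 and SS3 showed no overlap between wild type and mutants: SS1 had 36.5 to 40.04 in wild type leaves against 32.0 to 36.2 in mutant leaves, and SS3 had 8.07 to 8.92 against 6.87 to 7.89. By sample, SS1 stood at 40.04, 36.5 and 39.4 (wild type), 33.7, 32.0 and 33.5 (2cpab) and 31.96, 36.2 and 32.5 (ntrc-2cpab). Their differences were -0.21 and -0.18, with limma adjusted p of 0.0884 and 0.111. SS2 stood at 21.7, 15.4 and 16.9 in wild type leaves, 12.5, 12.8 and 14.4 in 2cpab leaves and 13.02, 16.4 and 13.9 in ntrc-2cpab leaves, where ntrc-2cpab replicate 2 reached into the wild type range. SS4, which takes part in granule initiation, stood at 7.96, 8.21 and 7.89 in wild type samples, 6.46, 6.73 and 8.27 in those of 2cpab and 7.12, 8.08 and 8.48 in those of ntrc-2cpab. PTST1, which brings GBSS1 to the granule, stood at 6.97, 5.54 and 6.40, at 4.72, 6.23 and 6.49, and at 5.59, 7.02 and 6.62 in the same order. Both overlapped between all genotypes, at 93.8% and 96.9% of the wild type level in the mean of both mutants.

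BE2, the more abundant branching enzyme, stood at 24.4, 26.4 and 27.0 (wild type), 21.4, 21.2 and 24.9 (2cpab) and 21.6, 26.5 and 23.3 (ntrc-2cpab), with overlapping groups. BE2 and BE3 differed by -0.16 and -0.02 (limma adjusted p = 0.265 and 0.924). ISA1 (AT2G39930) and ISA2 form the isoamylase complex of amylopectin synthesis. ISA1 stood at 10.8, 10.4 and 10.2 in wild type leaves, 8.25, 8.01 and 9.82 in 2cpab leaves and 7.84, 9.63 and 8.77 in ntrc-2cpab leaves, and ISA2 at 11.5, 11.4 and 10.8, at 8.78, 8.52 and 11.3, and at 8.41, 10.4 and 9.07. For ISA1 all mutant samples were below the wild type, and for ISA2 this held for all but 2cpab replicate 3. Both differed by -0.24, with limma adjusted p of 0.108 and 0.163. The granule proteins ESV1 and LESV, which bind starch and organise its glucans, were at 94.4% and 98.2% of the wild type level and were not called. ESV1 stood at 3.999, 4.49 and 4.48 in wild type samples, 3.74, 4.34 and 4.65 in those of 2cpab and 4.02, 4.03 and 3.69 in those of ntrc-2cpab.

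With groups compared by overlap alone, 10 of the 40 starch genes had all 6 mutant samples below all 3 wild type samples, where 7.35% of all tested genes did, and 0 had them above, where 7.51% did. In 2cpab alone 12 of 40 lay wholly below the wild type (all tested genes 11.6%, and 11% wholly above) and in ntrc-2cpab alone also 12 of 40 (13.9%). The 10 genes were 6 of synthesis, namely PGI1, APL1, APL4, SS1, SS3 and ISA1, and 4 of breakdown, namely BAM1, BAM5, LSF2 and MEX1. The leaf markers LHCB1.1, PSBO1 and RBCS1A were also below 0 in 3 of 3 cases in the mean of both mutants, with 0 called by limma and 3 at an unadjusted p under 0.05, and their part in the synthesis result was not tested.

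No starch gene was called between the mutants. Between ntrc-2cpab and 2cpab, 0 of the 40 were called in either direction (all tested genes 0% higher and 0.0061% lower), 0 had an unadjusted p under 0.05, and the smallest adjusted p was 0.993. Fitted differences ran from -0.31 for GBSS1 (95% confidence interval -0.81 to 0.18) to 0.27 for GWD1 (-0.17 to 0.72), so the intervals span both 0 and differences of these sizes. LSF2 differed by 0.13 (-0.14 to 0.40). Groups did not overlap for 1 gene (all tested genes wholly lower, 4.53%), the debranching enzyme LDA (AT5G04360), at 7.92, 7.33 and 7.86 in the double and 8.33, 8.16 and 8.71 in the triple mutant (wild type 8.01, 9.69 and 8.89), where 5.37% of all tested genes were wholly higher. Breakdown genes had a median of 0.11, with 6 of 21 below 0, and synthesis genes of 0.02, with 6 of 17 below 0, beside a median of 0.008 and 47.4% below 0 for all tested genes.

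The contrast of synthesis with breakdown was taken within each sample, as the median log2 deviation from the mean of the 9 samples over the 17 synthesis genes minus that over the 21 breakdown genes. It was 0.15, -0.07 and 0.07 for wild type samples, 0.13, -0.04 and -0.03 for those of 2cpab and 0.06, -0.05 and -0.12 for those of ntrc-2cpab. All 3 genotypes overlapped, and in each of them replicate 1 had the highest value. The group means were 0.05 ± 0.11 (wild type), 0.02 ± 0.10 (2cpab) and -0.04 ± 0.09 (ntrc-2cpab), each ± SD with n = 3, which differ by less than the spread within a genotype. Against the wild type, breakdown genes had a median of -0.04 in the mean of both mutants, with 13 of 21 below 0 (0.06 and 9 of 21 with the authors' scaling undone), and without the 3 called genes the median was -0.01, with 10 of 18 below 0. Without wild type replicate 1, in which most breakdown genes were low, the breakdown median was -0.13, with 17 of 21 below 0, against -0.19 for synthesis, so the gap between the classes depended on that library.

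**Figure D3:**
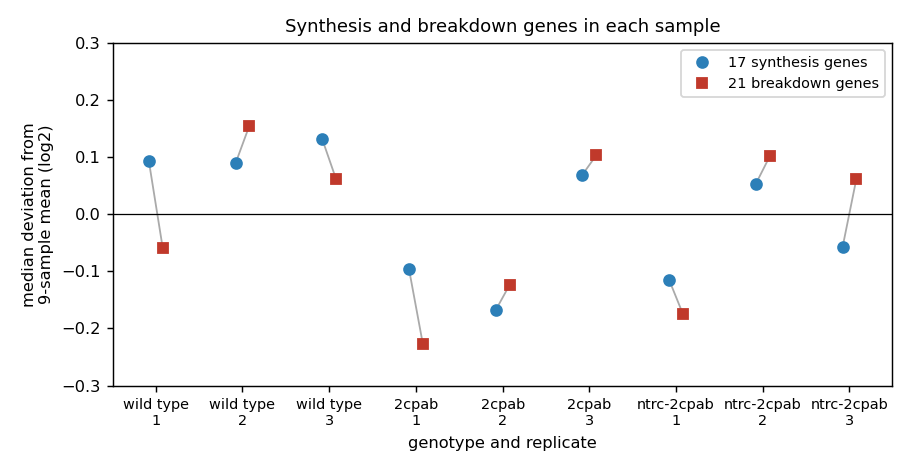
Median log2 deviation from the 9-sample mean over the 17 synthesis genes and over the 21 breakdown genes in each sample. The wild type samples lie higher for synthesis, and the breakdown medians of the genotypes overlap.

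Many breakdown genes took their lowest value of a genotype in the same sample. In ntrc-2cpab, 17 of the 21 were lowest in replicate 1 (32.4% of all tested genes were), and in the wild type 14 of 21 were lowest in replicate 1 (40.6%), as were 12 of 21 in 2cpab (41%). Of the 17 synthesis genes, 14 were also lowest in replicate 1 of ntrc-2cpab, beside 7 in that of the wild type and 3 in that of 2cpab. In 2cpab, 14 of the 17 synthesis genes were lowest in replicate 2 (28% of all tested genes). In 2cpab, replicate 3 was highest for 14 of 21 breakdown genes and for 14 of 17 synthesis genes (34.7% of all tested genes). LHY, a clock gene that peaks at dawn in Arabidopsis, stood at 24.5, 16.9 and 15.5 (wild type), 22.8, 14.9 and 9.28 (2cpab) and 13.03, 7.59 and 5.12 (ntrc-2cpab), highest in replicate 1 of each genotype. CCA1, which also peaks at dawn, did not follow that order, at 34.8, 22.1 and 24.0 (wild type), 21.3, 19.8 and 22.5 (2cpab) and 18.7, 22.4 and 14.7 (ntrc-2cpab). GI, which peaks later in the day, stood at 4.59, 4.82 and 3.20, at 4.05, 3.76 and 5.86, and at 4.38, 5.95 and 6.82. The genotypes differed in these genes too: in ntrc-2cpab LHY stood at 45.25% of the wild type level, CCA1 at 68.9%, GI at 135.9% and the clock gene TOC1 at 133%. Of the 6 clock genes tested in that comparison, 4 were below 0 and 2 above, and limma called 0. The part of the clock genes in the spread of the starch genes, or in their differences between genotypes, was not tested. The summed abundance of all 40 starch genes ran from 724.5 to 917.7, with 883.2 to 917.7 in wild type leaves, 726.6 to 900.8 in 2cpab leaves and 724.5 to 887.5 in ntrc-2cpab leaves.

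**Figure D4:**
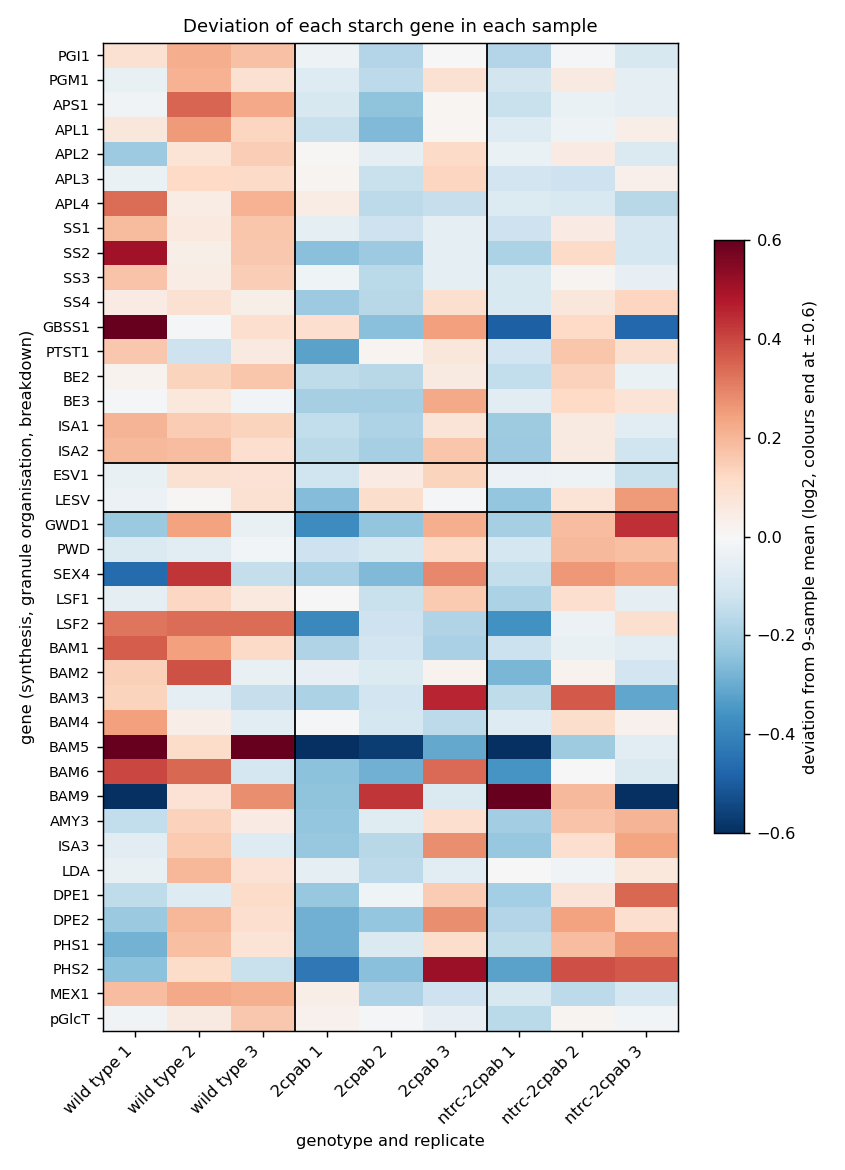
log2 deviation of each starch gene from its mean over the 9 samples, with genes in rows ordered by role and samples in columns. BAM5 carries the largest deviations, with wild type replicate 1 highest, and many breakdown genes are low in replicate 1 of each genotype.

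A list of 25 further genes of starch and sugar metabolism was also read, of which 22 were tested. BE1, a gene annotated as a branching enzyme whose product has little known starch branching activity, rose in both mutants: it stood at 1.64, 1.65 and 1.80 in wild type samples, 3.07, 3.88 and 3.77 in those of 2cpab and 4.11, 4.10 and 4.09 in those of ntrc-2cpab. No mutant sample overlapped the wild type. The difference was 0.76 in 2cpab and 0.92 in ntrc-2cpab (log2; limma adjusted p = 0.0147 and 0.00349), and it did not differ between the mutants by the test (0.16, adjusted p = 0.993). The call in 2cpab was lost without wild type replicate 1 (adjusted p = 0.071) and without 2cpab replicate 2 (adjusted p = 0.103). None of the other 21 was called, 17 of the 22 lay below 0 in the mean of both mutants, and the median was -0.14. SS5, a synthase-like protein of granule initiation, was at -0.21 in that comparison (limma adjusted p = 0.0672), cpFBP1, the chloroplast fructose-bisphosphatase, at -0.25 (adjusted p = 0.0771), PTST2, which acts in granule initiation, at 0.11 between the mutants (adjusted p = 0.993), and the glucose-6-phosphate translocator GPT2, named here after its values were seen, at 0.63 in the mean of both mutants (adjusted p = 0.0861).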

How the data were processed

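The 40 genes and all lists were chosen with earlier results of these data known. The submitters' processing notes name HISAT2 and StringTie, FastQC and the build TAIR10; the sources used here give no version, setting or strand use. The authors deposited log2 values, whose form, log2 of a scaled abundance plus 1, was worked out from the values: divided by 1 factor per sample, 98.1 to 99.3% of 1500 low values per sample were whole multiples of the sixth decimal within a tolerance of 0.1. Whether the abundance was FPKM or TPM is not known here; both are per length. Depth is unknown, so precision rests on the spread between replicates. Those are separate pools of 3 plants per the labels.

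Genes whose 9-sample mean abundance reached 1 were tested with limma 3.58.1 in R 4.3.3 (intensity trend, all 9 samples in 1 fit, 6 residual degrees of freedom, two-sided), adjusted by Benjamini-Hochberg within each of 4 comparisons and called at an adjusted p under 0.05. The test was tried on simulated data. Because 1 was added before taking logs, differences of low genes are understated.

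Values in every sample were given for called genes, for the 4 synthesis and 4 breakdown genes of smallest p in each comparison and for the most abundant gene of each role, and the pathway genes named were those called and those of smallest p. Alternatives were another filter, pseudocount or scaling, sample weights, a replicate block, fits on fewer groups and leaving out each sample. Gene positions and sequences came from the RefSeq annotation TAIR10.1, in which 15 of the 40 genes overlap another gene; BAM1, LSF2, MEX1 and BAM5 do not. The stretch before LSF2 is not reported here.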

Additional observations from a re-analysis of the deposited data

How the results depend on the processing

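BAM1, LSF2, MEX1 and BAM5 stayed below the wild type under all alternatives run. In the mean of both mutants, 7 alternatives kept every sample, and the call held in 7 of them for BAM1, 6 for LSF2 and 5 for MEX1. Each of these calls was lost when certain single samples were left out. Undoing the authors' scaling left 13 of the 17 synthesis genes below 0 in the mean of both mutants. In the mean of both mutants, leaving out 1 sample gave 0 to 3 starch genes called lower, and in ntrc-2cpab 0 to 1; the count was 0 when wild type replicate 1 was left out, and likewise for replicates 2 and 3 of 2cpab. BAM1 was called in 6 of these 9 fits, LSF2 and MEX1 in 2 each. In ntrc-2cpab the count was 0 with no filter, with the authors' scaling undone, with a replicate block and with only the groups compared, and 2 with a minimum mean of 5 or quantile normalization. In the mean of both mutants MEX1 lost its call with the scaling undone (adjusted p = 0.0566) and LSF2 with no filter (0.0658), PGI1 gained one with quantile normalization (0.0439), and BAM5 was called at that minimum (adjusted p = 0.0449), with the scaling undone (0.0452) and with sample weights (0.0384). The synthesis median with the scaling undone was -0.093 in 2cpab and -0.112 in the mean of both mutants, beside all-gene medians of 0.099 and 0.079.

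Of the pathway list, the call in 2cpab went from 1 to 0 with no filter, a minimum of 5 (which drops BE1, as also in the other comparisons, both then at 0), a replicate block and only the groups compared, and was 0 to 1 with a sample left out; in the mean of both mutants it was 1 to 2, and genes called lower went from 0 to 1 at the minimum of 5, 2 with quantile normalization and 1 with sample weights. Same-numbered samples had correlations of -0.156 to 0.21 in their deviations, and differently numbered samples of -0.341 to 0.247, so these ranges overlapped. In each genotype, replicate 1 had the highest contrast of synthesis with breakdown and the highest LHY level. Whether the numbers pair the samples for the starch genes alone was not tested. Under the replicate block 2 starch genes were called in the mean of both mutants, MEX1 having a limma adjusted p of 0.0557. The cause of the other changes was not tested. Depth is unknown and sets no stated limit.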
